A study of Homo sapiens with 14 samples.

Results

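The THO complex and its partners in mRNA export were followed through a pooled CRISPR interference screen for opioid receptor signal. The group held 10 genes: the helicases DDX39B and DDX39A, the THO subunits THOC1, THOC2, THOC3, THOC5, THOC6 and THOC7, the adaptor ALYREF and the export receptor NXF1. They were taken by the gene symbol in each guide's name, 10 of the 18905 genes in the count tables. The group was chosen with the bright versus dim ratios of these libraries known, so the ratios of its members, and their side of the call rule, describe that choice and are no evidence from a test. Of the members 9, each with 5 guides, were in the sublibraries compared between quartiles, which hold 16686 genes in all. NXF1 was in sublibrary H4, of which only the dim quartile was used.

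The screen asked which repressed genes change the amount of delta opioid receptor left after an agonist. The host was HEK293 FLP-In, an embryonic kidney cell line of human origin with an integration site for transgenes. It carried SSF-DOR-APEX2, the receptor fused to a peroxidase, and the repressor dCas9-KRAB-BFP. Clonal populations were expanded for both constructs, and every group shared these transgenes and treatments. They were infected, at a multiplicity near 0.2, with hCRISPRi-v2-top5, a genome-wide guide library of 5 guides per gene start, kept as sublibraries H1 to H7. From 2 days after transduction they were selected for 3 days in puromycin at 0.75 µg/ml, and they grew for 8 days. All cells were given 10 µM of the peptide agonist DADLE for 90 minutes, then 100 µM Amplex UltraRed for 15 minutes and 50 µM hydrogen peroxide before the azide quench. The brightest and dimmest quartiles (top and bottom) were sorted, and guides were counted in their genomic DNA after 27 cycles of PCR.

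There were 14 libraries in 14 groups, 1 top and 1 bottom library for each of 7 sublibraries. No sort was repeated, no unstimulated cells were included, and the differences have no replicate check. The 12 compared libraries held 18054418 to 34636612 counts. No library measured RNA, so neither the repression of a target nor the markers of kidney cells could be checked. Guides that change receptor production, receptor loss after DADLE or the peroxidase reaction cannot be told apart here.

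TREX, the transcription-export complex, joins THO to DDX39B (also called UAP56) and ALYREF on messenger RNA that is being made and spliced. THO is a scaffold that positions the helicase, the helicase loads adaptors such as ALYREF, and the adaptors pass the RNA to NXF1, which carries it through the nuclear pore. DDX39A (URH49) is the close paralog of DDX39B.

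CRISPR interference acts near the start of a gene, and the sequence just before the start gives its context. These stretches are not the guides' target sites, which were not placed on this build. Per gene, those sites spread over up to 438 bases among the members compared between quartiles. The 250 bases before the RefSeq start (GRCh38.p14) are shown for the 3 members with the lowest ratios and, for contrast, for DDX39A. All 4 lie on the minus strand and are written 5′ to 3′ in the gene's direction: DDX39B at chr6:31542004-31542253, THOC1 at chr18:268048-268297, THOC2 at chrX:123733053-123733302 and DDX39A at chr19:14419384-14419633. Capitals mark matches, on either strand, to any of 6 motifs. They are the ETS motif, searched as the letters CCGGAAG, the cyclic AMP response element as TGACGTCA, the CCAAT box by the letters of its name, the GC box as GGGCGG, the TATA box by the letters TATAAA, and the E-box written as CACGTG.
DDX39B: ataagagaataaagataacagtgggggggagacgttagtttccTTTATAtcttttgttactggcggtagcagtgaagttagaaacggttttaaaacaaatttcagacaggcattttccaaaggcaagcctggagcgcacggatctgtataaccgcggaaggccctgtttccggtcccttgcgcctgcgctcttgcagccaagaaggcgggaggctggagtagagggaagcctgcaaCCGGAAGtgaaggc
THOC1: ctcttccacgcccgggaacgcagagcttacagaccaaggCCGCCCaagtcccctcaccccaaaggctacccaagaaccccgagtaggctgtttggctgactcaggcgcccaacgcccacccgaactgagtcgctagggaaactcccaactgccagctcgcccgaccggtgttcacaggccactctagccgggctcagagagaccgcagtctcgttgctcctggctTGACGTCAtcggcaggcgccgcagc
THOC2: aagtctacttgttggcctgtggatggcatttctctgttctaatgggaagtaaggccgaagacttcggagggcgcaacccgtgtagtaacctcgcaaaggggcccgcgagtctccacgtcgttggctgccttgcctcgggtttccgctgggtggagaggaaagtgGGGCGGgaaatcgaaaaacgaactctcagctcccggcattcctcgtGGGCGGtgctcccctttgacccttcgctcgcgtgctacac
DDX39A: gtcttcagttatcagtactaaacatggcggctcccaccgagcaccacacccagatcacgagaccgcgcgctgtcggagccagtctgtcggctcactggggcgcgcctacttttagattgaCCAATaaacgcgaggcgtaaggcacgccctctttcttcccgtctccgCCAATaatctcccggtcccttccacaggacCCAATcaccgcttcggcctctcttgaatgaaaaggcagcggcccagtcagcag

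The DDX39B stretch held an ETS motif 14 bases and TATA box letters 207 bases before the start. THOC1 held a cyclic AMP response element at 25 bases and a GC box at 211 bases, THOC2 held a GC box at 86 and 40 bases, and DDX39A held the CCAAT box at 130, 83 and 53 bases. No motif was shared by DDX39B and its paralog. Among 27305 RefSeq promoter stretches of this length, the ETS motif was in 8.82%, the cyclic AMP response element in 1.77%, the CCAAT box in 33.0%, the GC box in 42.3%, the TATA box in 11.1% and the E-box in 6.49%. A match of letters is a description and shows no binding. The GC content was 50.4% for DDX39B, 64.4% for THOC1, 58.8% for THOC2 and 58.4% for DDX39A, and the median of all stretches was 58.0%.

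The ratio of a guide is log2 of its share of the top library over its share of the bottom library, centred on the median non-targeting guide of its sublibrary. A negative value means that cells with the guide were more frequent among dim cells. A gene's value is the mean ± SD over its 5 guides. A target, the guides of a gene start, was called when a two-sided permutation test against non-targeting guides gave an adjusted p of at most 0.05 over all 18116 targets.

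By this rule 3 of the 9 members, DDX39B, THOC1 and THOC2, were more frequent in the bottom quartile. None of the 9 was more frequent in the top quartile, and 6 did not pass. Over all targets 275 (1.52%) were called toward the bottom and 429 (2.37%) toward the top. The members were chosen with these calls in view, so nothing is read from their count, and the shares are printed only as background.

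**Figure D1:**
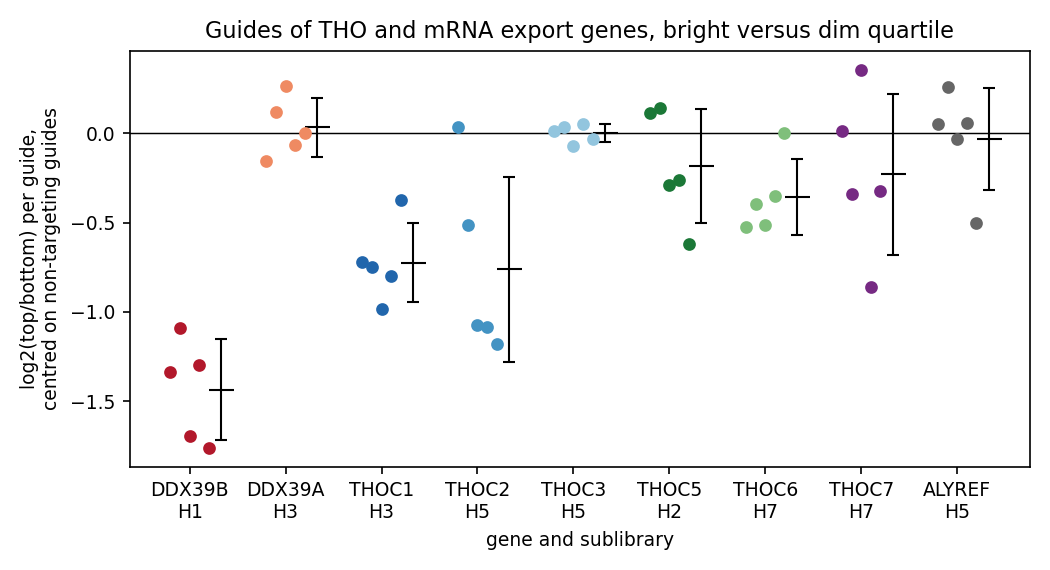
Ratio of each guide, log2(top/bottom) centred on non-targeting guides, for the 9 compared genes; points are guides and the black mark is the mean with its SD over 5 guides. All DDX39B and THOC1 guides lie below 0, whereas the guides of THOC3, ALYREF and DDX39A scatter around 0.

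DDX39B, the helicase that loads export adaptors, had the lowest ratio of the group. Its guide at position 31509349 had 1765 counts in the H1 bottom library and 870 in the top library, a ratio of -1.34. (Positions are those in the guide names, whose genome build is not given in the labels.) The guide at 31509735 had 585 bottom and 342 top counts (-1.09), and the guide at 31509748 had 1559 and 600 (-1.69). All 5 guides were scarcer among bright cells. The guide at 31509751 had 842 bottom and 426 top counts (-1.30), and that at 31509769 had 1509 and 554 (-1.76). The mean was -1.44 ± 0.28 (n = 5 guides), or 2.70-fold more in the bottom quartile, and it ranked 5 from the lowest of 18116 targets. Counting alone gave a standard error of 0.060 to 0.098 per guide, and the non-targeting guides of H1 had an SD of 0.265.

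A set of 4 DDX39B guides lay within 34 bases of each other. Among them 4 pairs were less than 20 bases apart on the same strand, so these pairs share part of their target sequence. These 4 guides averaged -1.46 ± 0.32. The lone guide, 386 bases from them, gave -1.34, inside the range of the others. Such pairs also numbered 2 each for THOC1, THOC6 and THOC7, 1 each for THOC2 and DDX39A, and 0 for THOC3, THOC5 and ALYREF.

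DDX39A, the paralog, lay near 0 in H3. Its guide at 14529739 had 1036 bottom and 1067 top counts (-0.15), that at 14529890 had 2112 and 2624 (0.12), and that at 14530088 had 1799 and 2478 (0.27). Both remaining guides were near 0. The guide at 14530122 had 1744 and 1908 counts (-0.07), and that at 14530136 had 2714 and 3106 (-0.00). The mean was 0.03 ± 0.16 (n = 5), at percentile 57.8 of all targets. The ranges of the guides of DDX39B and DDX39A did not overlap. Both genes were chosen with these ratios known, so this describes the choice and is no test of a difference between paralogs. They were sorted in different sublibraries, each centred on its own non-targeting guides.

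THOC1, the THO subunit known as HPR1 in yeast, had all 5 guides below 0 in H3. The guide at 267599 had 1342 bottom and 932 top counts (-0.72), that at 268006 had 1073 and 730 (-0.75), and that at 268012 had 2802 and 1622 (-0.98). These lie on both strands and 413 bases apart at most. The guide at 268026 had 2222 and 1464 counts (-0.80), and that at 268037 had 2876 and 2539 (-0.38). Of the 5 guides, 3 (268006, 268012 and 268026) form 2 same-strand pairs less than 20 bases apart. These pairs share part of their target sequence. The mean was -0.73 ± 0.22 (n = 5), 1.65-fold more in the bottom quartile and rank 72 from the lowest.

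THOC2, the largest THO subunit and its scaffold, had 4 of 5 guides below 0 in H5. The guide at 122866641 was the exception, with 375 bottom and 311 top counts and a ratio of 0.04. The guide at 122866726 had 755 and 427 counts (-0.52), and that at 122866823 had 2272 and 875 (-1.07). The remaining guides, at 122866836 and 122866875, had 875 and 334 counts (-1.08) and 784 and 280 counts (-1.18). The mean was -0.76 ± 0.52 (n = 5), 1.70-fold more in the bottom quartile and rank 60. Along 234 bases the ratio was lower at each guide of higher position, an order over 5 guides that was not tested. The guides at 122866823 and 122866836 lie less than 20 bases apart on the same strand and share part of their target sequence. The THOC2 call was lost with a rank-sum test and with edgeR.

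**Figure D2:**
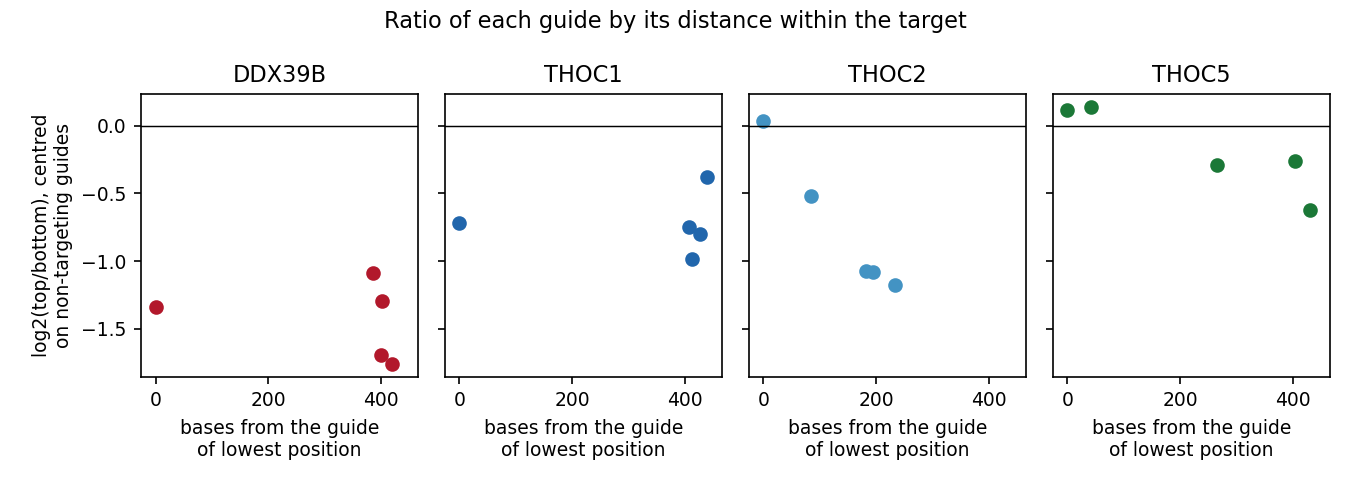
Ratio of each guide, log2(top/bottom), against its distance in bases from the guide of lowest position for DDX39B, THOC1, THOC2 and THOC5; each point is a guide. THOC2 goes from 0.04 to -1.18 over 234 bases, and the lone DDX39B guide lies level with the cluster 386 bases away.

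THOC6, a WD-repeat subunit, was the lowest member that was not called, in H7. The guide at 3074039 had 1585 bottom and 1133 top counts (-0.52), that at 3074070 had 149 and 116 (-0.40), and that at 3074073 had 1356 and 975 (-0.52). No THOC6 guide was above 0. The guide at 3074091 had 777 and 625 counts (-0.35), and that at 3074256 had 1191 and 1224 (-0.00). The mean was -0.36 ± 0.21 (n = 5), rank 384 from the lowest. Its SD over guides was close to that of THOC1, whereas non-targeting guides had an SD of 0.333 in H7 and 0.215 in H3. THOC1 and THOC6 were, by mean ratio, the members just inside and just outside the call rule.

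THOC5 and THOC7, which pair as a coiled coil within THO, each had 3 of 5 guides below 0. For THOC7, also in H7, the guide at 63849103 had 659 bottom and 682 top counts (0.01), that at 63849107 had 921 and 749 (-0.34), and that at 63849137 had 1377 and 1811 (0.35). The THOC7 guides thus lay on both sides of 0. The guide at 63849512 had 911 and 516 counts (-0.86) and that at 63849519 had 786 and 646 (-0.32). The THOC7 mean was -0.23 ± 0.45 (n = 5), at percentile 5.31. A single guide, 63849512, was farther below 0 than any THOC6 guide.

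For THOC5, in H2, the guide at 29949275 had 2455 bottom and 3376 top counts (0.11) and that at 29949317 had 1781 and 2493 (0.14). The guides of higher position were below 0. They were 29949540 with 1046 and 1085 counts (-0.29), 29949679 with 443 and 470 (-0.26), and 29949705 with 2465 and 2037 (-0.62). The THOC5 mean was -0.18 ± 0.32 (n = 5), at percentile 8.24. Raw counts of THOC5 guides can rise from bottom to top while the ratio is negative, because the H2 top library was the deeper of the pair.

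THOC3, the other WD-repeat subunit, lay at 0 in H5 with the smallest spread of the group. Its guide at 175395054 had 4203 bottom and 3425 top counts (0.01), that at 175395058 had 3871 and 3212 (0.04), and that at 175395160 had 2459 and 1896 (-0.07). The other guides were as close to 0. The guide at 175395296 had 2169 and 1821 counts (0.05), and that at 175395310 had 2376 and 1880 (-0.03). The mean was -0.00 ± 0.05 (n = 5), below the SD of 0.228 of non-targeting guides in H5.

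ALYREF, the adaptor that hands RNA to NXF1, had 4 guides near or above 0 and 1 well below. The guide at 79849084 had 2756 bottom and 2315 top counts (0.05), that at 79849097 had 1519 and 1472 (0.26), and that at 79849212 had 2204 and 1747 (-0.03). The remaining guides differed from each other. The guide at 79849261 had 2394 and 2018 counts (0.06), and that at 79849458 had 2904 and 1660 (-0.50). The ALYREF mean was -0.03 ± 0.28 (n = 5), at percentile 37.2.

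Across the 6 THO subunits the median ratio was -0.29, and all 6 means were below 0, from -0.76 for THOC2 to -0.00 for THOC3. With the helicases and ALYREF, 8 of 9 means were below 0, against 47.6% of all targets. THOC3 and ALYREF lay near 0 and changed sign, to 0.01 and 0.05 with the median over guides. Without the farthest guide they were at 0.02 and 0.08. DDX39A changed sign the other way, to -0.00 and -0.03 under these settings. The median of the 9 was -0.23, and that of all targets was 0.01. Without each target's farthest guide the median of the 9 was -0.07, as were the ratios of THOC5 and THOC7. Of the 45 guides 32 were below 0, against 49.0% of all guides. In order from the lowest, DDX39B had the lowest mean, although its highest guide (-1.09) lay above the lowest THOC2 guide (-1.18). THOC2 and THOC1 differed by less than the SD over the guides of either, and THOC6, THOC7 and THOC5 overlapped in their guides. These counts describe genes selected on the ratio and support no statement about mRNA export genes in general.

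**Figure D3:**
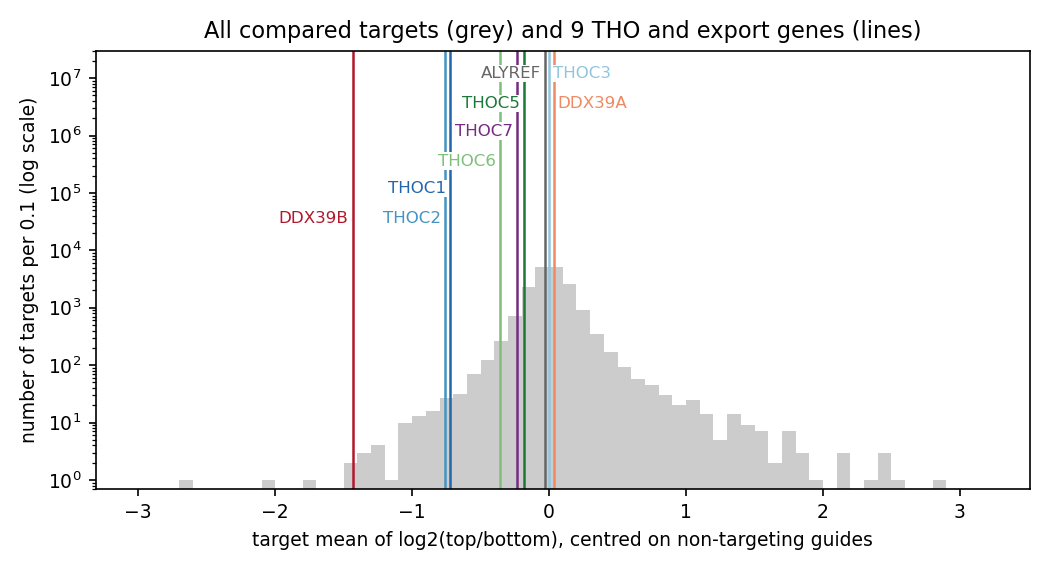
Number of targets (log axis) per 0.1 of mean log2(top/bottom) for the 18116 targets (1 lies outside the axis), with a line at each of the 9 compared genes. DDX39B, at -1.44, lies in the sparse left tail, THOC1 and THOC2 lie near -0.7, THOC6 lies at -0.36 in the lower tail, and THOC3, ALYREF and DDX39A lie at the peak.

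Abundance, the log2 of a guide's mean share of both quartiles relative to the median non-targeting guide, was not the measure on which the genes were chosen. It does share both the top and the bottom counts with the ratio. A choice for few top counts lowers it, and a choice for many bottom counts raises it. It was tested in the same way, over 18118 targets. None of the 9 members was called lower or higher by the permutation test with Benjamini-Hochberg adjustment. Over all targets 9 (0.0497%) were called lower and 0 higher. Since both counts are shared with the ratio, nothing is read from a low p of a member or from the number of such members. The unadjusted permutation p was under 0.05 for 2 of the 9 members, against 6.54% of all targets.

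These were THOC2 and DDX39B, whose guides were all scarcer than the median non-targeting guide. THOC2 guides, in order of position, had abundances of -2.15, -1.40, -0.01, -1.39 and -1.58. Their mean was -1.30 ± 0.79 (n = 5), or 0.405 of the non-targeting level (permutation p = 0.0106, adjusted p = 0.580). DDX39B guides had -0.46, -1.98, -0.74, -1.52 and -0.80, with a mean of -1.10 ± 0.63 (n = 5), or 0.467 of the non-targeting level (permutation p = 0.0423, adjusted p = 0.752). In the bottom library alone THOC2 had -1.01 ± 0.93 and DDX39B -0.57 ± 0.69, and in the top library alone they had -1.78 and -1.98. Both were lower in the top library, which restates the ratio on which they were chosen. Single non-targeting guides varied with an SD of 0.963 in H5 and 1.04 in H1. The guide content of the library before transduction was not analysed here, so a guide that was rare from the outset and one lost during growth cannot be told apart.

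The THOC1 guides, called in the ratio, had an abundance of -0.04 ± 0.66 (n = 5), at percentile 56.3 of all targets. THOC2 and THOC1 thus had similar ratios and different mean abundances, in different sublibraries; the difference in abundance was not tested. THOC6 averaged -0.70 ± 1.40, with the guide at 3074070, the rarest of the 45, at -3.11. THOC7 averaged -0.43 ± 0.51 and THOC5 -0.26 ± 1.08. DDX39A, ALYREF and THOC3 lay above the non-targeting median at 0.20 ± 0.55, 0.43 ± 0.28 and 0.78 ± 0.45. Adjusted permutation p-values of these 7 members lay above that of DDX39B. The median over the 9 was -0.26, and the median over all targets was -0.11. The sign of the members' median depended on single guides: it was 0.14 with the median over guides and 0.05 without the farthest guide. Under these settings THOC5 was at 0.26 and 0.16, THOC6 at 0.02 and -0.09, and THOC1 at 0.14 and 0.17.

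**Figure D4:**
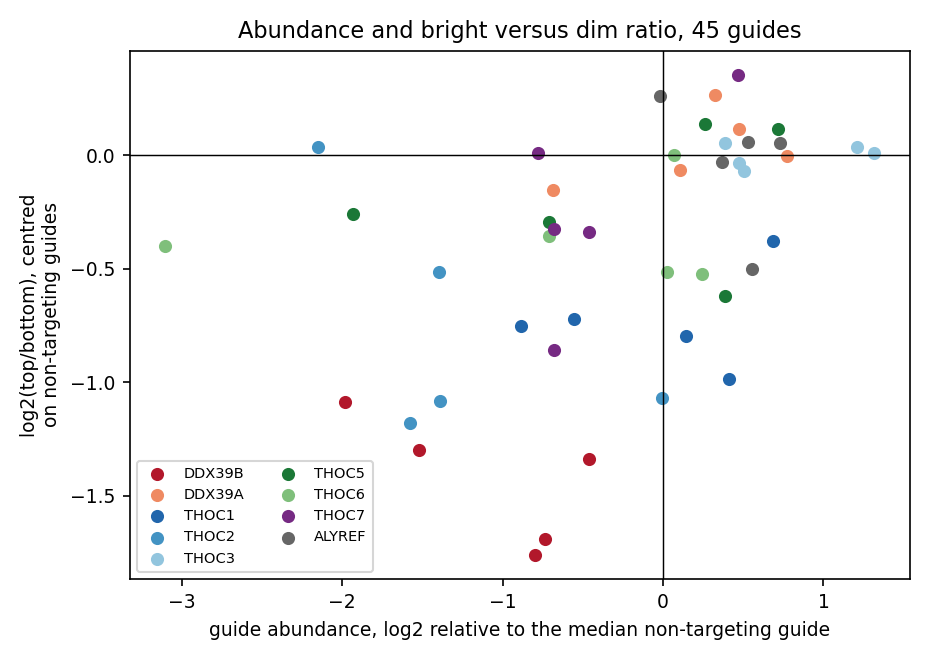
Ratio of each of the 45 guides, log2(top/bottom), against its abundance, log2 relative to the median non-targeting guide; colours are genes. DDX39B and most THOC2 guides lie low and to the left, the THOC1 guides lie low on both sides of 0 abundance, and the THOC3 guides lie to the right at a ratio near 0.

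NXF1, the receptor that carries messenger RNA through the pore, had 10 guides at 2 starts and only the H4 bottom library. At the first start its guides had 1746, 776, 2219, 799 and 1324 counts, a mean abundance of -0.11 ± 0.67 (n = 5), at percentile 52.1 of 2410 H4 targets. At the second start they had 1466, 80, 1495, 671 and 2386 counts, a mean of -0.81 ± 1.94 (n = 5), at percentile 5.46. The second mean rests on the guide with 80 counts, at -4.07. One quartile cannot show whether cells with NXF1 guides were bright or dim.

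THOC6, ALYREF and THOC7 lie close to another gene's guides, where repression can reach both. HCFC1R1, with guides 57 bases from those of THOC6, had a ratio of -0.12 ± 0.21 (n = 5) and was not called. ANAPC11, a subunit of the anaphase-promoting complex, had guides 179 bases from those of ALYREF, a ratio of 0.18 ± 0.15 (n = 5) and no call. ATXN7, at 530 bases from THOC7 guides, was in H4 and had no ratio. No guide of the 45 was listed under another target, and no other listed gene's guides lay within 1000 bases of those of DDX39B, THOC1 or THOC2.

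Other steps of the export pathway were described through 4 lists of genes outside the group, chosen with earlier results of these data known. The shares over all targets, 2.37% called toward the top and 1.52% toward the bottom, are printed only as background. Because of that choice nothing is read from the number of calls in a list. The p-values of its named genes are descriptions. All named targets have n = 5 guides, and the adjusted p-values are those of the permutation test over all targets. The test of a difference between these lists and the THO genes was not made, since the THO genes were chosen on the ratio.

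Among other adaptors and co-factors of export (21 genes, of which 19 gave 20 targets), 4 targets were called toward the top and 0 toward the bottom, with a median of 0.13. The SR proteins SRSF1, SRSF3 and SRSF7, which bind RNA in splicing and export, had ratios of 1.58 ± 0.93 (adjusted p = 6.91e-04), 0.96 ± 1.09 (6.91e-04) and 0.54 ± 0.58 (0.00968). ZC3H18, which links the cap-binding complex to RNA decay and export, had 0.62 ± 0.57 (adjusted p = 0.00167). Guides of these 4 genes were more frequent among bright cells, the side opposite to DDX39B. Their abundances were -0.43 ± 0.20 for SRSF1, -0.93 ± 1.38 for SRSF3, 0.20 ± 0.19 for SRSF7 and -0.96 ± 1.25 for ZC3H18. The lowest of the list was -0.37, and it was not called. Without the guide farthest from 0 the calls of SRSF7 and ZC3H18 were lost, and with edgeR or a rank-sum test those of SRSF3, SRSF7 and ZC3H18.

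The cap-binding and exon junction complexes, which mark capped and spliced RNA for TREX, gave 4 calls toward the top and 0 toward the bottom among 17 targets of 15 genes, with a median of 0.08. The cap-binding proteins NCBP2 and NCBP1 had 1.31 ± 0.86 (adjusted p = 6.91e-04) and 0.44 ± 0.31 (0.0255). Their partner SRRT (ARS2) had 1.32 ± 1.25 (6.91e-04), and RBM8A (Y14) of the exon junction complex had 1.02 ± 0.71 (6.91e-04). The NCBP1 call was lost without its farthest guide and with the median over guides, the RBM8A call was lost with a rank-sum test, and edgeR called NCBP2 alone of these 4. RBM8A also had an abundance of -2.35 ± 1.42, at percentile 0.146. The abundances of SRRT, NCBP2 and NCBP1 were -0.80 ± 0.95, -0.14 ± 0.67 and 0.06 ± 0.88.

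At the pore side of the pathway, 13 of 19 genes gave 18 targets, with a median of 0.00, 2 calls toward the top and 0 toward the bottom. NUP62, of the central channel of the pore, had 1.47 ± 0.38 and NUP98, which binds export receptors, had 0.85 ± 0.63 (adjusted p = 6.91e-04 and 0.00121). The NUP98 call was lost with edgeR. The abundances of NUP62 and NUP98 were -1.47 ± 1.12 and -1.01 ± 1.09, against -1.30 for THOC2, which was on the opposite side in the ratio. NXT2, a partner of NXF1, had -0.26 ± 0.36 and was not called. NXT1 was in H4 and was not compared. Targets of NXF2 and NXF2B share guides and are not separate measurements.

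TREX-2, which tethers active genes and their RNA to the pore, was the list with calls on the side of DDX39B. Among 10 targets of 8 genes, 2 were called toward the bottom and 1 toward the top, with a median of -0.00. MCM3AP (GANP), its scaffold, had -0.43 ± 0.35 (adjusted p = 0.00657), and PCID2 at its first start had -0.42 ± 0.26 (0.00865). PCID2 at its second start had 0.34 ± 0.09 (0.0465), so the starts of 1 gene were called in opposite directions. SHFM1 (DSS1) had -0.26 ± 0.22 and was not called. The abundance was -0.36 ± 0.80 for MCM3AP and, for PCID2, -0.29 ± 1.05 at the first and 0.27 ± 0.32 at the second start. All 3 TREX-2 calls were lost without the farthest guide and with edgeR.

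**Figure D5:**
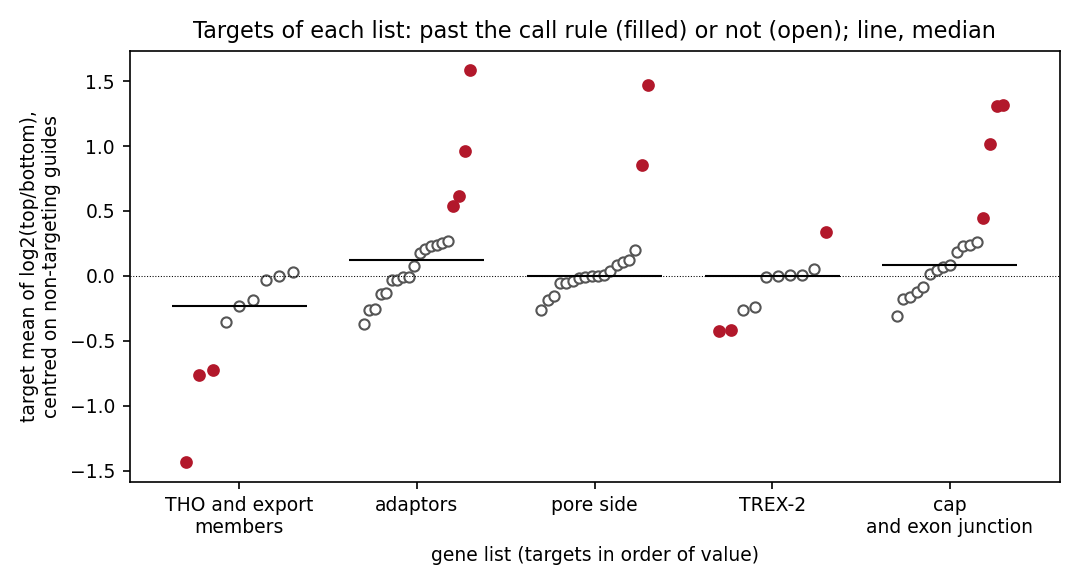
Mean log2(top/bottom) of each target in the THO and export group and in the 4 pathway lists; filled points passed the call rule, open points did not, and the line is the median. DDX39B, at -1.44, is the lowest point shown, and the filled points of the adaptor, pore and cap lists all lie above 0.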

How the data were processed

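The counts per guide were deposited by the authors as whole numbers without normalization; Bowtie, with no version, is named in the submitters' processing notes. Groups follow the titles in the labels. The H4 top table held 35 complete guides with 70718 counts and was left out. The other sublibraries held 91463 guides, 241 to 308 of them non-targeting and kept in each sublibrary.

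Each count was raised by 1 and divided by the library total. Guides with at least 50 counts in either library and targets with at least 3 guides were kept for the ratio. Means were tested against 100000 draws from the target's and the non-targeting guides (two-sided permutation), with Benjamini-Hochberg adjustment. The lowest p that these draws allow is 1e-05. The p-values compare guides within 1 sort, not repeated sorts. No molecular identifiers were used, so PCR copies are not separate molecules and counting errors cover counting only. With 1 library per group a guide has no residual degrees of freedom, so edgeR 4.0.16 (R 4.3.3) served as an alternative, with guides as blocks. Python 3.11.15, numpy 2.4.6, pandas 2.3.3 and numba 0.67.0 were used. The test was also run on simulated data, with independent noise per guide and equal changes for all guides of a target. Overlapping guides and unequal repression were thus not covered. Alternatives were the pseudocount, the filter, the centring, the summary over guides, left-out guides, the adjustment and the test.

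Members and lists were chosen with earlier results of these data known. Named were all members, in each list every gene past the threshold (the 3 farthest from 0 where fewer than 3 passed), and genes with guides within 1000 bases of a member's. Promoter stretches from RefSeq (GRCh38.p14) matched 9 of the 10 members by symbol.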

Additional observations from a re-analysis of the deposited data

How the results depend on the processing

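The members were chosen on these ratios, so their calls under other settings of the same counts are no sign of stability. DDX39B and THOC1 passed under all 10 alternatives, with ratios from -1.44 to -1.34 and from -0.75 to -0.66. THOC2 passed under 8 of 10, from -1.07 to -0.66, and not with edgeR or the rank-sum test. The other 6 compared members were called under none of the 10. No called ratio of a member changed sign, whereas the uncalled ratios of THOC3, ALYREF and DDX39A did. Counts over all targets moved more. Calls toward the top numbered 203 without the farthest guide of each target, 154 with edgeR and guides as blocks, and 282 with the rank-sum test. Calls toward the bottom numbered 109 without the farthest guide and 100 with edgeR. Calls of lower abundance numbered 41 with the bottom library alone, 16 with adjustment within each sublibrary, and 0 with the top library alone, with the median over guides or without the farthest guide. Calls of higher abundance numbered 2 with the bottom library alone, 3 with centring on all guides, 5 with the median and 3 with adjustment within each sublibrary. The cause of these moves was not tested, beyond the fewer guides left when the farthest is removed. The members' median ratio ran from -0.32 with the median over guides to -0.07 without the farthest guide. Their median abundance turned from -0.26 to 0.14 and 0.05 under the same settings. The abundance of DDX39B was -1.98 with the top library alone and -0.57 with the bottom library alone. Ratios pair the top and bottom counts of a guide, but no test over repeated sorts was possible because each group held 1 library. Precision is limited by the single sort per sublibrary and by the spread of non-targeting guides, whose SD of 0.215 to 0.333 exceeded the counting error of every member's guides.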
